A study of Mus musculus with 4 samples.

Results

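Histone lysine demethylases take methyl groups off the tails of histone H3. The 10 genes described here were *Kdm1a*, *Kdm2a*, *Kdm2b*, *Kdm3a*, *Kdm3b*, *Kdm4a*, *Kdm5a*, *Kdm5b*, *Kdm6b* and *Phf2*, out of 14,251 genes that held an IGF2BP3 eCLIP cluster in both replicates. A cluster belonged to a gene when its centre lay within the span of that gene in GENCODE release M21 (mm10) on the strand of the gene. By this rule the 10 genes held 580 of 337,234 clusters in replicate 1 and 404 of 216,354 in replicate 2. The samples were testes of wild type C57BL/6 mice, 8 weeks old, and held both germ cells and somatic cells. Testis suspensions were irradiated 3 times with UV light of 254 nm at 400 mJ/cm2, which ties proteins to the RNA they touch. Each of 2 replicates consisted of an IGF2BP3 IP library, made with an antibody to IGF2BP3, and a size-matched input (SMInput) library, made from the lysate without antibody. All 4 libraries came from the same genotype and age, so the only comparison was IP against SMInput.

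KDM1A uses FAD to oxidise the methyl groups of H3K4, and the other enzymes of the list carry a JmjC domain that depends on iron and 2-oxoglutarate. Members of the KDM2 group act on H3K36, KDM3 enzymes and PHF2 on H3K9, KDM4A on H3K9 and H3K36, KDM5 enzymes on H3K4, and KDM6B on H3K27. In male germ cells these enzymes reshape chromatin from the stem cell stage to the spermatid, and KDM3A is known for its role in the expression of transition protein and protamine genes. IGF2BP3 is a cytoplasmic RNA-binding protein with KH domains that binds mRNAs, many of them with m6A.

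The log2(fold change) of a cluster is the ratio of its IP to its SMInput reads, each scaled to its library, and a cluster counted as significant when this value and the −log10(P value) were both at least 2. Whole read numbers were recovered from the deposited values. The IP libraries held 5,133,438 usable reads in replicate 1 and 4,637,612 in replicate 2, and the SMInput libraries 8,706,391 and 16,696,122. With 1 SMInput read, 7 IP reads made a cluster significant in replicate 1, and 4 IP reads did so in replicate 2. A fold change needs an SMInput number above 0, so a number of 1 may stand for 0 or 1 reads, and the fold changes that rest on it may be set by this floor. The 95% intervals on log2(fold change) given here follow from the read numbers and cover counting error only.

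All 10 genes held clusters in both replicates, from 24 in *Kdm6b* to 116 in *Kdm5b* in replicate 1, and from 13 in *Kdm4a* to 88 in *Kdm5b* in replicate 2. Of these clusters, 27 were significant in replicate 1 (4.66%, against 4.92% of all clusters) and 36 in replicate 2 (8.91%, against 13.2%). A significant cluster was present in both replicates for 8 of the 10 genes. *Kdm3b* and *Kdm4a* had 1 each in replicate 2 and 0 in replicate 1. Among protein-coding genes with a cluster in both replicates, 39.1% had a significant one in both. All 10 demethylase genes held more clusters than the median gene, which had 15 in replicate 1 and 10 in replicate 2. Among the 4,011 protein-coding genes with at least 24 clusters in replicate 1 and 13 in replicate 2, the lowest numbers of the 10 genes, the share was 71.0%. Their count of 8 was therefore close to that of other genes rich in clusters. With both thresholds at 3, 2 clusters passed in replicate 1 and 7 in replicate 2.

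The 3′UTRs stood out within these genes by their share of significant clusters. They held 47 clusters in each replicate, of which 16 were significant in replicate 1 (34.0%) and 13 in replicate 2 (27.7%). Over all genes, 19.4% and 34.5% of the 3′UTR clusters were significant, so the demethylase genes were above that share in replicate 1 and below it in replicate 2. In CDS, 5 of 223 clusters were significant in replicate 1 (2.24%, against 5.28% over all genes) and 3 of 198 in replicate 2 (1.52%, against 7.96%). In introns, 6 of 295 clusters were significant in replicate 1 (2.03%, against 1.94%) and 20 of 151 in replicate 2 (13.2%, against 10.8%). No cluster of a 5′UTR was significant, out of 14 in replicate 1 (against 5.09% over all genes) and 7 in replicate 2 (against 8.63%). With so few clusters, 0 was close to these shares. The 3′UTR share of the significant clusters was 59.3% in replicate 1 (95% Wilson interval 40.7% to 75.5%) and 36.1% in replicate 2 (22.5% to 52.4%). Over all significant clusters this share was 43.2% and 36.6%, inside both intervals. Among significant clusters of the demethylase genes with at least 10 IP reads, the 3′UTR share was 66.7% and 73.3%. This read minimum raises the share over all genes too, so 43.2% and 36.6% are not its measure. Over all genes, fewer than 10 IP reads were held by 1162 of 7121 significant 3′UTR clusters with recovered reads in replicate 1, and 4004 of 10339 in replicate 2. For significant clusters of any region the counts were 4790 of 16460 and 17480 of 28211. With both thresholds at 3, which left 2 and 7 clusters of the demethylase genes, their 3′UTR share was 0.0% and 28.6%.

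Per length, the 3′UTRs of the 10 genes carried 0.699 significant clusters per kilobase in replicate 1 and 0.568 in replicate 2, and their CDS 0.122 and 0.0732. Protein-coding genes with clusters in both replicates carried 0.332 and 0.484 per kilobase of 3′UTR and 0.196 and 0.241 per kilobase of CDS. The 10 genes also had more clusters of any kind per kilobase than those genes. In 3′UTRs these were 2.05 and 2.05 (against 1.68 and 1.40), and in CDS 5.44 and 4.83 (against 3.68 and 3.04). The order of 3′UTRs above CDS in significant clusters was also seen in the fold changes of all clusters, significant or not. The median log2(fold change) was 1.70 and 1.76 in 3′UTRs of the demethylase genes, and 0.44 and 0.63 in their CDS. In their introns it was 1.57 and 1.53, near the 3′UTR values, on a median of 4 IP reads per cluster. In replicate 1 the intron median of *Phf2* was above its 3′UTR median (2.76 against 0.98). That of *Kdm5b* was below it (1.18 against 1.98), and other genes went either way. Over all genes the medians were 1.76 and 1.85 in 3′UTRs, 0.76 and 0.93 in CDS, and 2.08 and 1.85 in introns. Within a gene, the 3′UTR median lay above the CDS median in 9 of 9 genes in replicate 1, where *Kdm2b* had no 3′UTR cluster, and in 10 of 10 genes in replicate 2. Among protein-coding genes with clusters in both regions this was so for 73.3% of 8,143 genes in replicate 1 and 79.4% of 7,338 in replicate 2. Those genes were not limited to ones rich in clusters, as the 10 genes are. Their gaps ran from −4.38 to 4.68 and from −3.50 to 5.79. The share among genes rich in clusters was not counted. The gap between the 3′UTR and CDS medians ran from 0.26 in *Kdm6b* to 1.62 in *Kdm5a* in replicate 1, and from 0.25 in *Phf2* to 1.78 in *Kdm3a* in replicate 2.

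**Figure D1:**
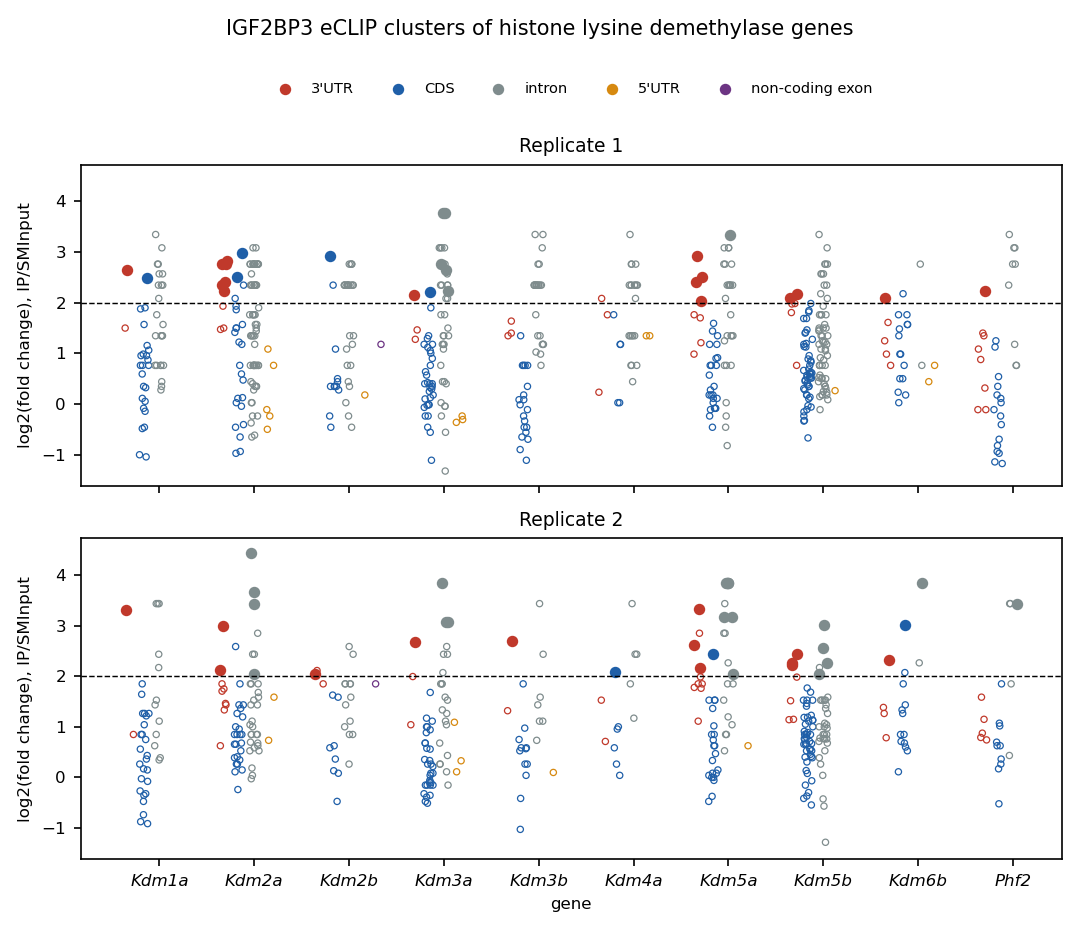
Each point is a cluster of a demethylase gene, with its log2(fold change) of IP over SMInput on the vertical axis, replicate 1 above and replicate 2 below. Colours give the region, filled points are significant clusters (27 and 36), and the dashed line marks a log2(fold change) of 2. The median of the red 3′UTR points lies above that of the blue CDS points in 9 of 9 genes in replicate 1 and 10 of 10 in replicate 2, though single red points lie among the blue ones.

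The H3K4 demethylase *Kdm1a* spans chr4:136550540-136602723 (minus strand), and its annotated 3′UTR is short, at 308 bases over all its basic transcripts, as for the 3′UTR lengths of the other genes. That 3′UTR held a site significant in both replicates. In replicate 1 the cluster ran from 136550691 to 136550759, 11 IP reads stood against 3 SMInput reads, and the log2(fold change) was 2.64 (95% interval 0.79 to 4.48). In replicate 2 it ran from 136550674 to 136550747, with 11 against 4 reads and a value of 3.31 (1.66 to 4.96). The shared 57 bases were centred 129 bases past the stop codon, in the last of 20 exons. Its smaller value of 2.64 was the highest among the sites found in both replicates. In CDS, a cluster in exon 10 at codon 419 of 873 was significant in replicate 1 alone, with 23 against 7 reads and a log2(fold change) of 2.48. A cluster of replicate 2 at the same place had 6 IP and 18 SMInput reads and a value of 0.26. The difference had an unadjusted p of 0.0163 and a Benjamini-Hochberg adjusted p of 0.999 in the Wald test over all cluster pairs.

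*Kdm5a* spans chr6:120364124-120444574 (plus strand) and encodes an enzyme that removes H3K4 methylation at promoters. Its 3′UTR of 5,381 bases was the longest of the 10 genes and held 4 significant clusters in replicate 1 and 3 in replicate 2. Of these 7 clusters, 6 were centred between 1,125 and 1,523 bases past the stop codon and 1 at 2,477 bases. A first shared site, centred 1,138 bases past the stop codon, had 22 IP against 7 SMInput reads in replicate 1 (log2(fold change) 2.41) and 17 against 10 in replicate 2 (2.61). The next, at 1,264 bases, had 18 against 4 reads in replicate 1 (2.93) and 25 against 20 in replicate 2 (2.17). That cluster of replicate 2 had its longest overlap with another one of replicate 1, which was not significant (15 against 11 reads, 1.21). Between 120440582 and 120440636, replicate 2 had a cluster of 25 against 9 reads with a log2(fold change) of 3.32 (95% interval 2.22 to 4.42). This was the only significant cluster of the 10 genes, in either replicate, whose interval lay wholly above 2 (0 of 27 and 1 of 36). Over all significant clusters with recovered reads, 9.61% in replicate 1 and 9.44% in replicate 2 had such an interval. Replicate 1 had no cluster over it and a significant one slightly downstream, from 120440690 to 120440743, with 20 against 6 reads (2.50). Further along, a cluster from 120441608 to 120441733 passed narrowly in replicate 1 (2.03), and the cluster it met in replicate 2 had a value of 1.76. No cluster further downstream was significant in either replicate.

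In introns of *Kdm5a*, replicate 1 had 1 significant cluster, from 120432860 to 120432940, with 12 against 2 reads and a log2(fold change) of 3.35 (95% interval 1.19 to 5.51). No cluster of replicate 2 overlapped it. The 7 significant intron clusters of replicate 2 rested on few reads, at most 8 IP reads each. A ratio of 4 IP reads to 1 SMInput read lay behind each of the clusters from 120392826 to 120392887, 120410170 to 120410220, 120421880 to 120421889 and 120421890 to 120421920, all with a log2(fold change) of 3.85, a value set by the floor if the 1 stands for 0. The last 2 of these touch each other and may share reads. A cluster in CDS, in exon 7 at codon 284 of 1,690, had 6 against 4 reads in replicate 2 (2.43).

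*Kdm5b*, at chr1:134560171-134635285 (plus strand), encodes the closest relative of KDM5A. It held the most clusters of the 10 genes in both replicates. Its 3′UTR had 6 clusters in replicate 1 and 7 in replicate 2. None lay further than about the first kilobase after the stop codon of the transcript with the longest CDS. Clusters from 134631238 to 134631370 in replicate 1 and from 134631238 to 134631356 in replicate 2 lay before that stop codon. They belonged to the 3′UTR of another transcript. In replicate 1 the cluster from 134631649 to 134631684 had 32 IP and 12 SMInput reads and a log2(fold change) of 2.18 (95% interval 1.22 to 3.13). It fell inside a cluster of replicate 2 from 134631601 to 134631708, with 65 and 50 reads and a value of 2.23 (1.69 to 2.76). The centre of this shared site was 292 bases past the stop codon. The longest overlap of that replicate 2 cluster was with a neighbour in replicate 1 of 68 and 33 reads, whose value of 1.81 was not significant. The other shared site, 822 bases past it, had 20 and 8 reads in replicate 1 (2.08) and 53 and 35 reads in replicate 2 (2.45). These were low fold changes. The median significant 3′UTR cluster of the 10 genes had 20.5 IP reads in replicate 1 and 17.0 in replicate 2. All clusters of these sites had more, except that of the second site in replicate 1.

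The deepest 3′UTR cluster of *Kdm5b* lay between these sites and was not significant in either replicate. From 134631820 to 134631922, replicate 1 had 100 IP and 100 SMInput reads, and the log2(fold change) was 0.76 (95% interval 0.36 to 1.16). The matching cluster of replicate 2 had 146 and 184 reads, a log2(fold change) of 1.51 (1.20 to 1.83) and a −log10(P value) of 22.1, the highest of all clusters of the 10 genes in that replicate. Its P value passed and its fold change did not. The same held for 3 other 3′UTR clusters of *Kdm5b* in replicate 1, with log2(fold change) values of 1.81, 1.98 and 1.98 and −log10(P value) values of 9.21, 7.86 and 9.68. None of its 49 CDS clusters in replicate 1 and 46 in replicate 2 was significant. In introns, replicate 2 had 4 significant clusters, the deepest of them with 18 IP reads each, from 134562461 to 134562524 (3.02) and from 134577682 to 134577787 (2.56).

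**Figure D2:**
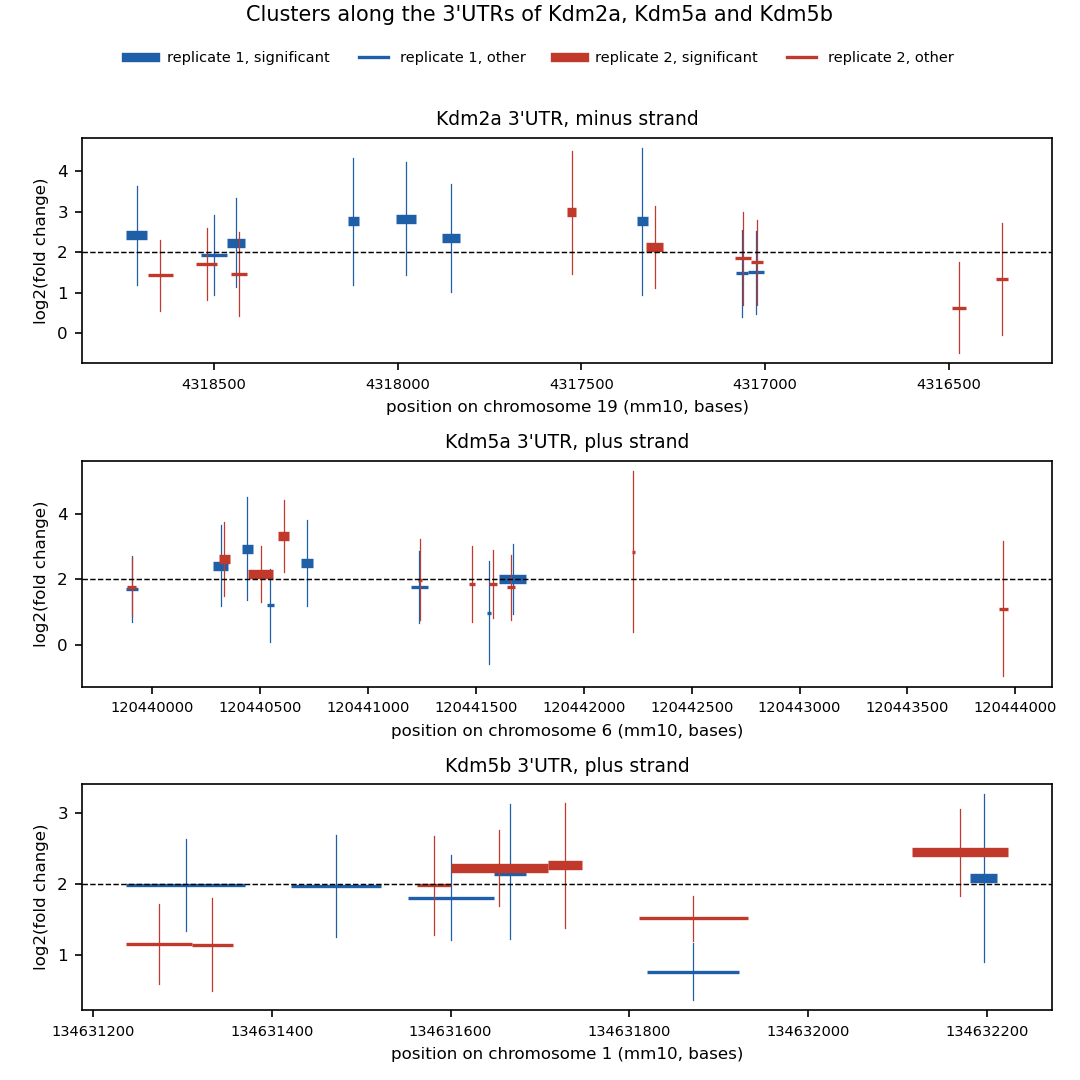
Bars mark the 3′UTR clusters of Kdm2a, Kdm5a and Kdm5b by position (mm10, in bases, 5′ to 3′ from left to right) and log2(fold change) of IP over SMInput, replicate 1 in blue and replicate 2 in red, thick where significant. Thin vertical lines are 95% counting intervals and the dashed line marks 2. In Kdm2a, 4 thick blue bars have no red bar over them, and in Kdm5b the pair with the most reads lies below 2 in both replicates.

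The H3K36 demethylase *Kdm2a*, at chr19:4314419-4398285 (minus strand), had the most significant clusters in replicate 1, with 6 in its 3′UTR of 4,974 bases and 2 in CDS. The 3′UTR clusters were spread from 389 to 1,767 bases past the stop codon. Their log2(fold change) ran from 2.24 to 2.83 on 12 to 25 IP reads. In replicate 2 the same 3′UTR had 9 clusters, as in replicate 1, of which 2 were significant. Only the cluster of replicate 1 from 4317320 to 4317347 (12 against 3 reads, 2.76) met a significant one of replicate 2, from 4317278 to 4317323 (17 against 14 reads, 2.13), and they had 4 bases in common. The cluster from 4318416 to 4318465, at 2.24 in replicate 1, overlapped a cluster of replicate 2 at 1.46. The remaining 4 had no cluster of replicate 2 over them. In CDS, the cluster at codon 291 of 1,161 had 14 against 3 reads in replicate 1 (2.98). A cluster of replicate 2 at that place had nearly the same fold change (2.59), but its 5 against 3 reads gave a −log10(P value) of 1.82, below the threshold. At codon 50, replicate 1 had 10 against 3 reads (2.50), and the cluster it met in replicate 2 had 5 against 10 reads and a value of 0.85. The 4 significant intron clusters of *Kdm2a* in replicate 2 formed pairs that touch each other, with 6 to 8 IP reads each.

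*Kdm2b*, the paralogue of *Kdm2a* whose protein recruits the polycomb complex PRC1.1 to CpG islands, spans chr5:122870665-122989823 (minus strand). It had 1 significant cluster in each replicate, in different regions. In replicate 1 it lay in CDS, at codon 1,180 of 1,309, with 9 IP and 2 SMInput reads and a log2(fold change) of 2.93 (95% interval 0.72 to 5.14). In replicate 2 it lay in the 3′UTR, 71 bases past the stop codon, with 8 and 7 reads and a value of 2.04 (0.58 to 3.50). Neither overlapped any cluster of the other replicate.

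Among the H3K9 demethylases, *Kdm3a* had the most significant clusters, 7 in replicate 1 and 4 in replicate 2. It spans chr6:71588972-71632990 (minus strand), and its 3′UTR has 663 bases. Different parts of this 3′UTR were significant in the replicates. From 71589465 to 71589659, near the stop codon, replicate 1 had 29 against 11 reads and a log2(fold change) of 2.16. The cluster of replicate 2 inside it, with 21 against 19 reads, had 1.99, just under the threshold, at a −log10(P value) of 5.22. From 71589199 to 71589281 replicate 2 had 16 against 9 reads (2.68), and the cluster of replicate 1 there had 13 against 8 (1.46). The second pair differed by 1.22 on the log2 scale, with a 95% interval of −0.52 to 2.95 that included 0. Calls on opposite sides of the threshold thus came from values that overlapped within counting error. *Kdm3a* also had 5 significant intron clusters in replicate 1 and 3 in replicate 2. The strongest by P value in replicate 1, from 71607763 to 71607827, had 16 against 2 reads and a log2(fold change) of 3.76. That of replicate 2, from 71626353 to 71626450, had 14 against 6 reads (3.07).

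*Kdm3b*, the paralogue of *Kdm3a*, spans chr18:34777047-34838660 (plus strand). Its single significant cluster lay in the 3′UTR in replicate 2, 682 bases past the stop codon and from 34838319 to 34838385, with 9 against 5 reads and a 95% interval of its log2(fold change) from 1.12 to 4.27. Replicate 1 had 3 clusters in this 3′UTR, at 1.35, 1.40 and 1.64, none of them over that position. *Kdm4a*, at chr4:118136957-118180043 (minus strand), likewise had 1 significant cluster, in CDS in replicate 2. It covered codon 216 of 1,064 in exon 6, from 118166378 to 118166447, with 13 against 11 reads and a log2(fold change) of 2.09 (0.93 to 3.25). No cluster of replicate 1 overlapped it. *Kdm4a* had few clusters in CDS, 1.45 and 1.74 per kilobase in replicates 1 and 2, where *Kdm5b* had 10.4 and 9.80.

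*Phf2*, at chr13:48801750-48871119 (minus strand), had 1 significant cluster in each replicate. The one of replicate 1 lay in the 3′UTR, 699 bases past the stop codon, with 11 against 4 reads and a log2(fold change) of 2.22. A cluster of replicate 2 that overlapped it had 12 against 25 reads and a value of 0.79. The one of replicate 2 lay in an intron, from 48850865 to 48850927, with 6 against 2 reads (3.43). In CDS, the median log2(fold change) of *Phf2* was −0.18 in replicate 1, the lowest of the 10 genes, and 0.63 in replicate 2.

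*Kdm6b*, which encodes an H3K27 demethylase, spans chr11:69398508-69413675 (minus strand) and was the shortest of the 10 genes. A single 3′UTR site was significant in both replicates and began at the same base, 69399050. In replicate 1 it ended at 69399143, with 35 IP and 14 SMInput reads and a log2(fold change) of 2.08 (95% interval 1.19 to 2.98). In replicate 2 it ended at 69399121, with 39 and 28 reads and a value of 2.33 (1.63 to 3.03). The shared 72 bases were the most of any site and lay in the middle of the 3′UTR, 741 of 1,318 bases past the stop codon. Replicate 2 also had a CDS cluster at codon 1,123 of 1,641 with 9 against 4 reads (3.02). An intron cluster 9 bases wide rested on 4 against 1 reads (3.85).

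In all, 7 sites in 5 of the genes were significant in both replicates, and all 7 lay in 3′UTRs. They were 1 each in *Kdm1a*, *Kdm2a* and *Kdm6b* and 2 each in *Kdm5a* and *Kdm5b*. Among the 4,011 protein-coding genes rich in clusters, 28.3% had such a site, in any region. The 3′UTR share of such sites over all genes was not counted, so 7 of 7 has no measure beside it. The lower log2(fold change) of the pair ran from 2.08 to 2.64, so all 7 lay near the threshold, and with both thresholds at 3 the count was 0. No significant intron cluster of the 10 genes overlapped any cluster of the other replicate, 0 of 6 in replicate 1 (95% Wilson interval up to 39.0%) and 0 of 20 in replicate 2 (up to 16.1%). Over all genes, 14.6% and 10.4% of the significant intron clusters did. Of the intron clusters of the 10 genes that were not significant, 9.0% and 20.6% did. For significant 3′UTR clusters of the demethylase genes the counts were 11 of 16 (68.8%, against 61.8% over all genes) and 8 of 13 (61.5%, against 58.6%). Their 3′UTR clusters that were not significant overlapped about as often, at 61.3% and 67.6%. In CDS, 3 of 5 significant clusters overlapped in replicate 1 (against 70.0% over all genes). In replicate 2, 0 of 3 did (95% Wilson interval up to 56.1%, against 66.7% over all genes). Of their CDS clusters that were not significant, 61.0% and 70.3% did. Fewer than 10 IP reads were held by 2 of the 6 intron clusters of replicate 1 and 17 of the 20 of replicate 2, against 69.9% and 94.8% of all significant intron clusters with recovered reads. An SMInput number of 1, which may stand for 0, lay behind 1 of the 6 and 7 of the 20, against 54.2% and 51.9%. The part of read depth in the missing overlap was not tested.

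Between the replicates, 179 pairs of clusters of the 10 genes overlapped, and the 114 with recovered reads in both were compared. Of the 65 left out, 50 were listed at a −log10(P value) of 0 in 1 replicate and 10 in both. Pairs with a value of 0 in either replicate, among them pairs enriched in a single replicate, could not enter the test. Across the 114 pairs Pearson's r of the log2(fold change) values was 0.479 and Spearman's rho 0.422, and across all 179 they were 0.533 and 0.481. Over all compared pairs of the series Pearson's r was 0.527, against the 0.479 of the 114. Pairs of a gene share a transcript and are not independent. In the two-sided Wald test on read numbers, 0 of the 114 pairs differed between replicates at a Benjamini-Hochberg adjusted p under 0.05, and 5 (4.39%) had an unadjusted p under that level. Over all 53,201 pairs of the series, 0.0282% differed after adjustment and 3.25% had an unadjusted p under 0.05. The median 95% interval of a difference was 3.40 wide on the log2 scale, and differences within such intervals were not detectable at this depth. Of the 5, 4 lay in *Kdm5b*, among them its deepest 3′UTR cluster, at 0.76 in replicate 1 and 1.51 in replicate 2.

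The gene nearest to a cluster by transcription start site was often not the gene that contained it. The nearest start site belonged to a neighbour for 15 of 27 significant clusters in replicate 1 and 21 of 36 in replicate 2, against 46.4% and 44.7% over protein-coding genes. In 3′UTRs this was so for 13 of 16 and 11 of 13 (against 59.5% and 61.1%). In CDS it was so for 1 of 5 and 2 of 3 (against 38.9% and 39.1%), and in introns for 1 of 6 and 8 of 20 (against 34.0% and 33.0%). The neighbours of the 3′UTR clusters were *Grk2* for *Kdm2a*, *Il17ra* for *Kdm5a*, *Syt2* for *Kdm5b* and *Tmem88* for *Kdm6b*, and in replicate 2 also *Rnf34* for *Kdm2b* and *Reep2* for *Kdm3b*. Counted by nearest start site, 5 of the demethylases had a significant cluster in both replicates, and 1 site was left to them.

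Short stretches of mm10 show the RNA under these sites, 5′ to 3′ on the strand of the gene. For each site significant in both replicates with the highest lower fold change of its gene, 30 bases around the middle of the shared span are given. For *Kdm2b*, *Kdm3a* and *Phf2*, which had no shared site, the stretches lie in the significant cluster with the highest −log10(P value) of the replicate named. Capitals mark the motifs GAACA or AAACC, the sequence TGGAC, which holds the m6A core GGAC, or the CA-rich sequence ACACA.
Kdm1a 3′UTR, chr4:136550704-136550733: ctagtttgacagcagaggctggctcctttg
Kdm2a 3′UTR, chr19:4317306-4317335: taaaaacagcagtctgctcccttgaccctc
Kdm5a 3′UTR, chr6:120440316-120440345: tctctgactactgactgttctatagattat
Kdm5b 3′UTR, chr1:134631651-134631680: tattggagtttgcacctttttgtgtacagc
Kdm6b 3′UTR, chr11:69399070-69399099: tgtccgggcttggcccgtctgtctccgccc
Kdm2b CDS, replicate 1, chr5:122878633-122878654: ggtcagaTGGACaatcggagca
Kdm2b 3′UTR, replicate 2, chr5:122871630-122871659: aaagactgcaaaatcaagtgggcctattat
Kdm3a 3′UTR, replicate 1, chr6:71589547-71589576: ttcctgTGGACtttgagatttcctgttacc
Kdm3a 3′UTR, replicate 2, chr6:71589225-71589254: tcccccacccactagggtccagaagagcaa
Phf2 3′UTR, replicate 1, chr13:48802885-48802914: cgggggacccaggctaagccacgtggaggg
The base composition varied widely, from 33.3% G and C in *Kdm5a* to 73.3% in *Kdm6b* and *Phf2*. None of the 5 stretches from shared sites held any of the 4 sequences, and neither did those of the other shared sites of *Kdm5a* and *Kdm5b*. The 4 sequences do not cover all forms of an m6A site, so their absence does not show that such sites are missing. The *Phf2* 3′UTR stretch, for one, holds GGAC without a T before it and is not marked. No share for such short stretches over all significant clusters is given. The 70 bases of the *Kdm4a* cluster in CDS held none of them either, and the 63 bases of the *Phf2* intron cluster of replicate 2 held ACACA. These longer spans are not printed, and no stretch is given for *Kdm3b*.

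These 4 sequences were counted on the strand of the gene in windows of 100 bases around the centres of all significant clusters. GAACA and AAACC contain the AC of m6A sites, TGGAC holds their common core GGAC, and ACACA stands for the CA-rich elements bound by IGF2BP proteins. In replicate 1, GAACA was in 1 of 27 windows of the demethylase genes (3.70%, against 8.86% of all significant clusters), AAACC in 3 (11.1%, against 8.66%), TGGAC in 4 (14.8%, against 9.61%) and ACACA in 1 (3.70%, against 11.2%). In replicate 2, GAACA was in 0 of 36 windows (8.38% of all), AAACC in 4 (11.1%, against 8.13%), TGGAC in 2 (5.56%, against 8.92%) and ACACA in 4 (11.1%, against 10.7%). None of these counts exceeded 4 windows.

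Other genes with related roles were counted in the same way, beside the shares of 39.1% of protein-coding genes and 71.0% of those rich in clusters with a significant cluster in both replicates. Of 16 further lysine demethylases and JmjC proteins, 6 had a significant cluster in both replicates and 5 in neither. *Kdm1b*, *Jmjd1c* and *Kdm7a* had a site significant in both. *Kdm7a* had 5 significant 3′UTR clusters in replicate 1 and 2 in replicate 2. *Kdm5c*, the X-linked paralogue of *Kdm5a* and *Kdm5b*, had 21 and 12 clusters, none of them significant. Of 11 partners of KDM1A in the CoREST complex, 10 had a significant cluster in both replicates, among them *Hdac1*, *Hdac2* and *Rcor1*. Of 9 PRC1.1 partners of KDM2B, 4 had a significant cluster in both replicates, with a shared site in *Yaf2* and *Skp1a*.

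The genes that set the same marks gave 5 of 7 genes for H3K4, 2 of 6 for H3K9, 3 of 4 for H3K27 and 4 of 4 for H3K36 with a significant cluster in both replicates, where the shares over protein-coding genes were the same 39.1% and, among those rich in clusters, 71.0%. The lists hold methyltransferases, and that for H3K27 also counts non-catalytic PRC2 subunits, 1 of them among the 3. *Nsd2*, an H3K36 methyltransferase, had 3 significant 3′UTR clusters in replicate 1 and 11 in replicate 2. Its relative *Nsd1* had 2 and 8, and both had a shared site. The median log2(fold change) of all clusters was 1.18 and 0.97 for the 10 demethylases in replicates 1 and 2, and 1.56 and 1.85 for the further demethylases. Over all clusters of the series it was above that of the 10 genes in replicate 1 too, and 1.53 in replicate 2.

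Markers of testicular cells were read as a check of the tissue, and their counts of genes significant in both replicates stand beside the 39.1% over protein-coding genes. All 6 spermatid markers held clusters in both replicates, and 2 of them, *Acrv1* and *Spaca1*, had significant ones in both. *Prm1*, *Prm2*, *Tnp1* and *Tnp2*, stored mRNAs of late spermatids, held 7 to 10 clusters each with none significant. All 4 spermatocyte markers held clusters, with 0 and 2 genes significant in replicates 1 and 2. Of 4 markers of spermatogonia, 3 had a significant cluster in both replicates. Of 5 Sertoli cell markers, 4 held clusters in both replicates, and *Rhox5* held 5 in replicate 1 and 0 in replicate 2. Significant clusters were held by 2 of the Sertoli cell genes in replicate 1 and 1 in replicate 2, with no gene in both. All 4 Leydig cell markers held clusters in both replicates, significant for 2 genes in replicate 1 and 1 in replicate 2, again with no gene in both. Both peritubular cell markers held clusters too, with significant ones of *Myh11* in both replicates and of *Acta2* in replicate 2. Since whole testes were used, the cell type in which IGF2BP3 met the demethylase mRNAs cannot be told apart.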

How the data were processed

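Clusters of 2 IGF2BP3 IP libraries were analysed, each set against the SMInput of its own replicate. The submitters' processing notes name cutadapt, Bowtie2, STAR and mm10. By the study's methods, the authors removed adapter and ribosomal RNA sequence, aligned the rest, collapsed duplicates by molecular barcodes, called clusters with Clipper in each replicate, without pooling, and normalised them to SMInput. The deposited −log10 values are P values of IP against SMInput, listed as 0 with little or no enrichment and as 400 at the ceiling. The deposited log2 values are fold changes scaled to library size. Both are the authors' own values and describe and filter clusters here. Overlapping clusters were made non-overlapping before deposit, so neighbours that touch may share reads.

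Read numbers were solved from both values, with Fisher's exact test where a number observed or expected was under 5 and a Yates-corrected chi-square test elsewhere. One solution was found for 98.9% and 99.4% of the clusters between 0 and 400. Regions were read at the cluster centre from basic GENCODE M21 transcripts, with 3′UTRs taking precedence over CDS, then 5′UTRs, exons of non-coding transcripts and introns. The stop codon distances given here are from the transcript with the longest CDS. Clusters outside the 3′UTR of that transcript, as some of *Kdm5b*, were placed by another one. M21 is not the annotation release named by the study. Overlap meant at least 1 base on the same strand. Cluster pairs, each the best match of the other, were compared by a two-sided Wald test on the difference in log IP to SMInput reads, with Benjamini-Hochberg adjustment over all pairs of the series. The replicates may differ technically or biologically, and p-values of pairs measure read counting alone.

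All 10 genes were named, each by its shared site with the highest lower fold change or else by its cluster with the highest −log10(P value). Members and lists were chosen with earlier results of these data known. The comparison with genes rich in clusters, the densities per kilobase, the overlap by region and the shares by interval and read number were chosen after the values were seen. Some results for the listed genes are not reported here. Alternatives covered thresholds, gene assignment, read minimum, overlap, region order and single replicates. Python 3.11.15, numpy 2.4.6, pandas 2.3.3, SciPy 1.17.1 and bedtools 2.31.1 were used.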

Additional observations from a re-analysis of the deposited data

How the results depend on the processing

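The counts moved with the thresholds. With both at 3, the significant clusters of the 10 genes numbered 2 in replicate 1 and 7 in replicate 2, 2 genes had one in both replicates, 0 sites were significant in both, and the 3′UTR share in replicate 1 was 0.0%. At a fold change threshold lowered to 1 on the log2 scale, they numbered 50 and 69, with 16 sites. By nearest transcription start site, replicate 2 had 23 clusters, 5 genes had one in both replicates and 1 site was shared. With at least 10 IP reads, replicate 2 had 15 clusters and a 3′UTR share of 73.3%. A stricter threshold or read minimum keeps fewer clusters by construction and a looser one more, and the cause of the other shifts was not tested. With a single replicate, 8 to 10 genes had a significant cluster and 26 to 32 sites were counted. The other alternatives kept counts within 1.5 times and shares within their intervals, among them 5 sites when the overlap had to cover 50% of the shorter cluster, and 0 differing pairs under each pair setting. No paired analysis was possible for these counts because they come from no test across replicates but from calls made within each one, and the pair test compares the replicates themselves. A test of recovered reads stratified by replicate was not run. The depth behind these counts was a median of 18 IP reads per significant cluster in replicate 1 and 8 in replicate 2.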
